A study of Oryza sativa with 8 samples.

Results

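Pectin-modifying enzymes of rice were taken as the loci whose annotation text names a pectinesterase, a polygalacturonase, a pectate lyase or, written as a single word, a pectin acetylesterase. The rule found 132 of the 55801 loci of the table. They comprised 43 pectinesterases, 10 pectin acetylesterases, 44 polygalacturonases, 12 pectate lyases, 12 proteins with a pectinesterase inhibitor domain and 11 polygalacturonase inhibitors, so 23 of the 132 are named for blocking such enzymes and not for the activity itself. RNA was sequenced from wild type seedlings of the cultivar Nipponbare. The 4 groups, of 2 libraries each, were first leaves after 1 h of shade, first leaves in white light, coleoptiles after 1 h of shade and coleoptiles in white light. The first leaf groups were harvested at 3 days and the coleoptile groups at 2 days. Age is therefore confounded with tissue, and their effects cannot be told apart. All seeds were first kept in water at 37 °C for 24 h. Seedlings then grew at 28 °C in continuous white light, and the shade was LED light with red at 16, blue at 1.3 and far-red at 48 µE per square metre per second. Nothing in the labels ties the replicates to separate cultures, so p-values measure the spread between these libraries, which may be technical.

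Pectin is a galacturonic acid polymer of the primary wall and of the layer that joins neighbouring cells. It is laid down with methyl and acetyl groups, which pectinesterases and pectin acetylesterases remove from polymer already in the wall. Polygalacturonases and pectate lyases then cut the bared chain, by adding water and by elimination. Inhibitor proteins bind the enzymes: pectinesterase inhibitors act on the plant's own pectinesterases, and polygalacturonase inhibitors are leucine-rich repeat proteins best known for blocking polygalacturonases of fungi. Grass walls hold little pectin compared with those of most other flowering plants, and many members of these families are known from pollen.

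Levels are in FPKM, which corrects fragment numbers for transcript length and library size. Differences are on the log2(FPKM + 1) scale, on which changes of weakly expressed loci come out too small. A locus was tested in limma where its mean over the 8 libraries reached 1 FPKM, and a locus is called where the Benjamini-Hochberg adjusted p over all 21014 tested loci is under 0.05. Coleoptile white light replicate 1 stood apart from the other libraries on the second principal axis, which held 19.4% of the variance. White light coleoptile replicates correlated at r = 0.914 over the tested loci, against 0.975 to 0.982 for those of the 3 other groups. Summed WRKY transcripts, stress and wound regulators, were at 722 to 743 FPKM in shaded and 1127 to 2617 FPKM in white light coleoptiles, and those of ZIM domain genes, jasmonate repressors, at 515 to 539 FPKM in shaded and 1270.2 to 2715 FPKM in white light coleoptiles. The chlorophyll-binding and Rubisco small subunit genes that mark leaf chloroplasts were above 0 at 21 of 21 loci. They summed to 35598 to 42402 FPKM in shaded and 43002 to 46002 FPKM in white light first leaves, against 18603 to 26005 FPKM in shaded and 15957 to 25974 FPKM in white light coleoptiles. Pollen and anther annotated loci were at 0 in all libraries at 34 of 45, where 41.0% of all loci were. The 11 others summed to 279 to 336 FPKM in first leaf libraries and 317 to 408 FPKM in coleoptile libraries.

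Pectin genes were above 0 FPKM more often than all loci of the table, and in 3 of the 6 subfamilies a single locus carried most of the signal. The annotation of each member ends in the word expressed, which was not required of the loci they are set beside. Its part in the difference was not tested. Of the 132 members, 98 (74.2%) were above 0 FPKM in some library, against 59.0% of all loci, and 34 (25.8%) were listed at 0 in all 8, against 41.0% of all loci. Those 34 were 12 polygalacturonases, 11 pectinesterases, 5 pectate lyases, 5 pectinesterase inhibitors and 1 polygalacturonase inhibitor. All 10 pectin acetylesterases were above 0 and all 10 passed the filter. In all, 64 members (48.5%) had a mean of at least 1 FPKM and were tested, against 37.7% of all loci, namely 23 polygalacturonases, 18 pectinesterases, 10 pectin acetylesterases, 6 polygalacturonase inhibitors, 4 pectate lyases and 3 pectinesterase inhibitors. A mean of at least 10 FPKM was reached by 28 members (21.2%), against 20.6% of all loci. Together the 132 members held 0.136% to 0.179% of all FPKM in a library.

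The 3 members with the highest means were an inhibitor of each class and a pectinesterase. LOC_Os03g01020, with a pectinesterase inhibitor domain, was at 132 and 143 FPKM in shaded and 156 and 182 FPKM in white light first leaves, against 127 and 76.1 FPKM in shaded and 79.7 and 163 FPKM in white light coleoptiles. It carried 95.6% of the summed FPKM of the 12 loci of its subfamily. Its tissue differences were not called (limma adjusted p = 0.498 in shade and 0.417 in white light). The next of the 12 were far lower, LOC_Os12g40750 at 5.24 and 2.95 FPKM in shaded and 1.86 and 3.77 FPKM in white light first leaves, against 3.12 and 3.76 FPKM in shaded and 3.04 and 1.80 FPKM in white light coleoptiles, and LOC_Os02g33380, under 3 FPKM in every library. The share depends on annotation wording. Outside the members, 25 loci annotated as invertase or pectin methylesterase inhibitors summed to 202 to 362 FPKM per library. LOC_Os01g21034, the highest pectinesterase, was at 120.0 and 90.3 FPKM in shaded and 64.7 and 88.6 FPKM in white light first leaves, against 135 and 94.6 FPKM in shaded and 95.1 and 98.1 FPKM in white light coleoptiles. Its tissues overlapped in shade, while in white light both first leaf libraries lay below both coleoptile libraries, and neither difference was called (limma adjusted p = 0.831 in shade and 0.464 in white light). The third, the polygalacturonase inhibitor LOC_Os07g38130, is given with the tissue differences.

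The other subfamilies each had a leading locus that was on in both tissues. Pectin acetylesterase LOC_Os07g44070 stayed between 70.6 and 122 FPKM in the 8 libraries and pectate lyase LOC_Os04g05050 between 37.9 and 93.6 FPKM, with 48.8% and 71.0% of the signal of their subfamilies. Polygalacturonases were spread more evenly: the highest, LOC_Os01g43160, ran from 26.5 to 51.6 FPKM and held 11.1%, followed by LOC_Os09g26800 (25.3 to 40.7 FPKM) and LOC_Os12g36810 (15.4 to 51.9 FPKM). Next among pectinesterases were LOC_Os04g46740, between 19.1 and 81.9 FPKM, and LOC_Os10g26680, between 21.7 and 53.6 FPKM. Among the lower pectate lyases LOC_Os01g36620 was at 9.86 to 30.6 FPKM and LOC_Os10g31910 at 4.50 to 7.92 FPKM. Of the 28 members with a mean of at least 10 FPKM, 8 (28.6%) kept their highest library under 2 times their lowest, against 58.0% of all loci at that level. This ratio also takes in spread between replicates. White light coleoptile replicates were over 2-fold apart in FPKM + 1 at 31.3% of the tested members, against 15.1% of all tested loci. The part of that spread in the ratios was not tested. The steadiest of the 28 was LOC_Os09g26800, with a highest-to-lowest ratio of 1.61, and the widest ratio was 10.7, for LOC_Os07g38130.

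Summed over each subfamily, only the polygalacturonase inhibitors did not overlap between tissues in either light. These summed to 72.6 and 41.1 FPKM in shaded and 52.7 and 60.0 FPKM in white light first leaves, against 221 and 240.4 FPKM in shaded and 179 and 257 FPKM in white light coleoptiles. LOC_Os07g38130 made up 78.5% of that signal. Pectate lyases did not overlap between shaded tissues, at 91.1 and 86.6 FPKM in first leaves and 128 and 119.9 FPKM in coleoptiles, and overlapped in white light, at 55.1 and 86.1 FPKM in first leaves and 78.9 and 107 FPKM in coleoptiles. Pectinesterases summed to 354 and 256 FPKM in shaded and 228 and 294 FPKM in white light first leaves, against 309.5 and 247 FPKM in shaded and 334 and 206 FPKM in white light coleoptiles. Their tissue groups overlapped in both lights. Polygalacturonases overlapped between tissues in both lights, at 436 and 377 FPKM in shaded first leaves and 379.7 and 366 FPKM in shaded coleoptiles. Pectin acetylesterases and pectinesterase inhibitors were also apart in shade and overlapped in white light, but in shade they were higher in the first leaf. There pectin acetylesterases summed to 193 and 174 FPKM in first leaves and 162 and 156 FPKM in coleoptiles. Pectinesterase inhibitors summed to 138 and 148 FPKM in shaded first leaves and 135 and 83.8 FPKM in shaded coleoptiles.

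**Figure D1:**
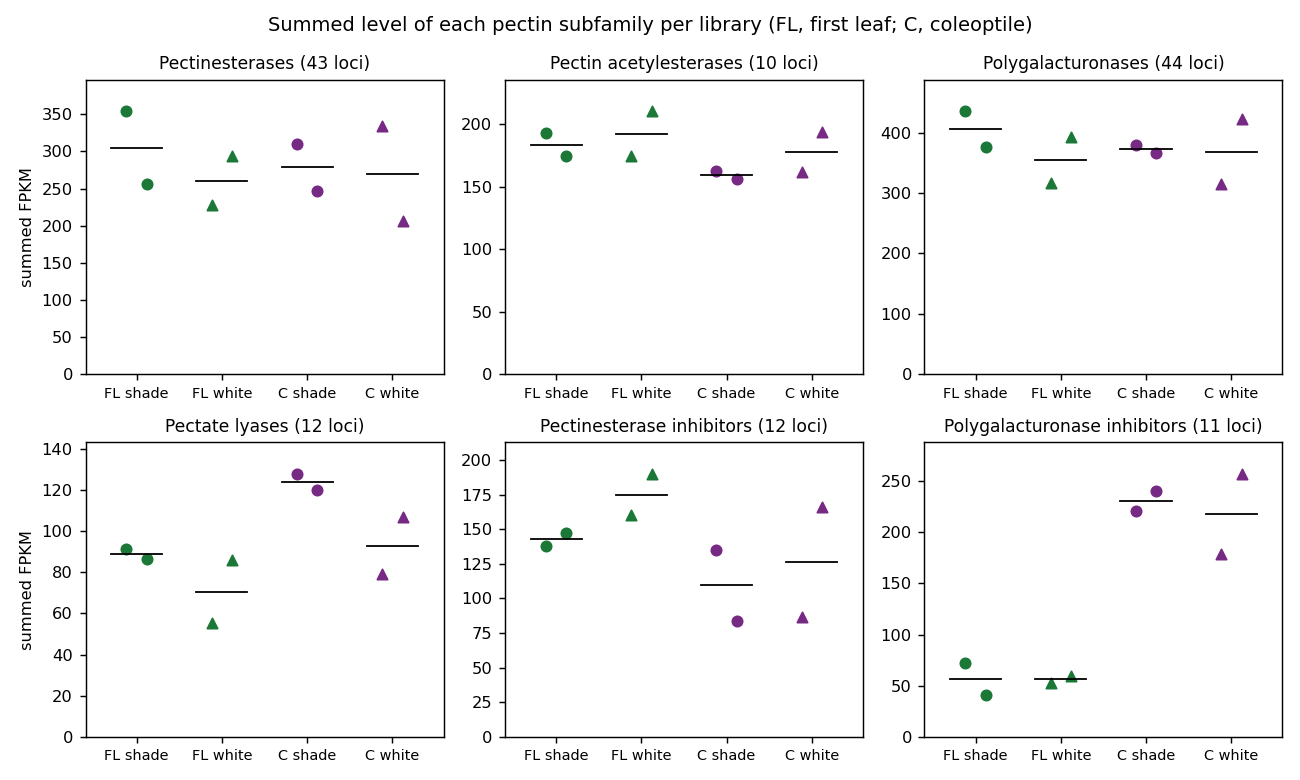
Summed FPKM (y axes, from 0) of the members of each subfamily in every library, with first leaf groups left of coleoptile groups; circles are shade, triangles white light, and the black line is the mean of the 2 libraries. Polygalacturonase inhibitors sit between 41.1 and 72.6 FPKM in the 4 first leaf libraries and between 179 and 257 FPKM in the 4 coleoptile libraries.

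Which pectin genes differed between first leaf and coleoptile was tested in each light, from 4 libraries that the other light does not share, with 1 estimate of the spread from all 8. In shade 6 members were higher in the first leaf (9.38% of 64, against 5.67% of all tested loci) and 5 were lower (7.81%, against 4.63%). In white light 6 were also higher (9.38%, against 5.92%) and 5 lower (7.81%, against 5.03%). By name 4 members (6.25%) were higher in both lights, against 3.88% of all tested loci, and 5 (7.81%) were lower in both, against 3.09%. By library, 30 members in shade had both first leaf libraries above both coleoptile libraries (46.9%, against 31.2% of all tested loci) and 21 had both below (32.8%, against 29.4%). In white light 17 lay above (26.6%, against 26.5%) and 10 below (15.6%, against 23.0%). Of the members called higher in the first leaf, 3 were polygalacturonases in shade and 4 in white light. Of the 5 that were lower, 3 were pectinesterases and 2 polygalacturonase inhibitors in either light. With all 8 libraries limma called no pectate lyase and no pectinesterase inhibitor domain protein in either light. None had an unadjusted p under 0.05, 0 of 4 pectate lyases and 0 of 3 inhibitor domain proteins. Their smallest adjusted p was 0.405 in shade and 0.638 in white light for pectate lyases, and 0.215 in shade and 0.343 in white light for inhibitor domain proteins. These results depend on the white light coleoptile libraries. Leaving out 1 of those changed the outcome for LOC_Os02g33380 in both lights, and for LOC_Os03g01020 and pectate lyase LOC_Os01g36620 in white light. As these are whole organs, fewer cells of a type and less RNA per cell cannot be told apart.

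The polygalacturonase inhibitor LOC_Os05g01380 had the widest tissue difference of the 64 tested members in both lights. It was at 0.699 and 0.792 FPKM in shaded first leaves, against 20.5 and 17.7 FPKM in shaded coleoptiles. In white light it was at 0.358 and 0.331 FPKM in first leaves, against 10.8 and 14.5 FPKM in coleoptiles. It was under 1 FPKM in all 4 first leaf libraries and above 10 FPKM in all 4 coleoptile libraries. Its log2 change between first leaf and coleoptile was -3.52 ± 0.21 in shade (SE, limma adjusted p = 0.000240) and -3.33 ± 0.21 in white light (adjusted p = 0.000266). It kept this call in each of the 15 alternative settings in both lights.

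LOC_Os07g38130, the most abundant polygalacturonase inhibitor, was at 42.5 and 21.3 FPKM in shaded first leaves, against 177 and 203 FPKM in shaded coleoptiles. In white light it was at 32.1 and 30.1 FPKM in first leaves, against 147 and 228 FPKM in coleoptiles. The lowest coleoptile library lay over 3 times above the highest first leaf library. The log2 change was -2.61 ± 0.34 in shade (SE, limma adjusted p = 0.00451) and -2.52 ± 0.34 in white light (adjusted p = 0.00482). LOC_Os07g38130 lost its shade call without coleoptile shade replicate 2 (adjusted p = 0.0530), in limma.

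Of the 4 other tested polygalacturonase inhibitors, 1 was called higher in the first leaf in white light and none was called in shade. LOC_Os06g28480 was higher in the first leaf, at 12.9 ± 3.74 FPKM in white light first leaves and 4.07 ± 1.87 FPKM in white light coleoptiles (SD, n = 2 each), with a log2 change of 1.48 and a limma adjusted p of 0.0339. In shade its change of 1.23 was not called (adjusted p = 0.0641). LOC_Os06g28480 lost its white light call without coleoptile shade replicates 1 or 2, coleoptile white light replicate 2, first leaf shade replicates 1 or 2 or first leaf white light replicates 1 or 2 (adjusted p = 0.0549 to 0.205), in limma. LOC_Os08g39550 was between 6.95 and 13.5 FPKM in all 8 libraries. Its first leaf libraries lay below its coleoptile libraries in shade and overlapped with them in white light, and it was not called (adjusted p = 0.409 in shade and 0.931 in white light). LOC_Os05g01444, close in its identifier to LOC_Os05g01380, was at 0.487 and 0.933 FPKM in shaded and 0.646 and 0.519 FPKM in white light first leaves, against 2.57 and 1.59 FPKM in shaded and 1.04 and 2.16 FPKM in white light coleoptiles. Its groups did not overlap between tissues in either light, and it was not called (adjusted p = 0.147 in shade and 0.229 in white light).

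Pectinesterases were the other subfamily with members called lower in the first leaf. LOC_Os07g47830 was at 14.8 and 14.3 FPKM in shaded first leaves, against 41.9 and 37.0 FPKM in shaded coleoptiles, a log2 change of -1.38 ± 0.17 (SE, limma adjusted p = 0.00393). In white light it was at 10.5 and 12.2 FPKM in first leaves, against 25.0 and 20.6 FPKM in coleoptiles, with a log2 change of -0.94 ± 0.17 (adjusted p = 0.0153). Every coleoptile library exceeded every first leaf library. LOC_Os07g47830 lost its white light call without first leaf white light replicates 1 or 2 (adjusted p = 0.0694 to 0.119), in limma.

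The consecutive identifiers LOC_Os08g34900 and LOC_Os08g34910, both pectinesterases, were close to 1 FPKM or below in first leaves. LOC_Os08g34910 was at 1.03 and 1.19 FPKM in shaded and 0.898 and 1.10 FPKM in white light first leaves, against 6.75 and 6.26 FPKM in shaded and 11.7 and 6.38 FPKM in white light coleoptiles. Its log2 change was -1.83 in shade (limma adjusted p = 0.00875) and -2.28 in white light (adjusted p = 0.00351). LOC_Os08g34900 was at 0.619 and 0.463 FPKM in shaded and 0.569 and 0.562 FPKM in white light first leaves, against 6.54 and 6.75 FPKM in shaded and 13.2 and 3.19 FPKM in white light coleoptiles. It was lower in the first leaf in shade (-2.31, limma adjusted p = 0.0295) and in white light (-2.30, adjusted p = 0.0289), where its coleoptile replicates were themselves far apart. LOC_Os08g34910 lost its shade call without coleoptile shade replicates 1 or 2 or first leaf shade replicates 1 or 2 (adjusted p = 0.0617 to 0.0735), in limma. LOC_Os08g34900 lost its shade call without coleoptile shade replicates 1 or 2, first leaf shade replicates 1 or 2 or first leaf white light replicates 1 or 2 (adjusted p = 0.0581 to 0.169) and its white light call without coleoptile shade replicates 1 or 2, first leaf shade replicates 1 or 2 or first leaf white light replicates 1 or 2 (adjusted p = 0.0624 to 0.138), in limma. Reads of similar neighbours can be split between them, so the level of each is uncertain.

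Of the 15 other tested pectinesterases, 14 were not called in either light and 1 was called higher in the first leaf in shade. LOC_Os08g10604 was higher in the first leaf in shade, at 3.17 ± 0.520 FPKM in shaded first leaves and 0.655 ± 0.364 FPKM in shaded coleoptiles (SD, n = 2 each; log2 change 1.34, limma adjusted p = 0.0316), and not called in white light (adjusted p = 0.322). LOC_Os08g10604 lost its shade call without coleoptile shade replicates 1 or 2, first leaf shade replicates 1 or 2 or first leaf white light replicates 1 or 2 (adjusted p = 0.0504 to 0.189), in limma. LOC_Os03g28090, under the filter with a mean of 0.820 FPKM, was listed at 0 in all 4 first leaf libraries, against 2.16 and 1.52 FPKM in shaded and 1.98 and 0.905 FPKM in white light coleoptiles. LOC_Os11g07090, also under the filter, was at 1.37 and 1.36 FPKM in shaded and 0.464 and 0.359 FPKM in white light first leaves, against listed values of 0 in both shaded coleoptiles and 0.103 and 0 FPKM in white light coleoptiles. A listed 0 can be a failed estimate, so no fold is given for them. Without the filter LOC_Os03g28090 and LOC_Os11g07090 were both called by limma in both lights.

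Of the 8 members called higher in the first leaf in either light, 4 were polygalacturonases. LOC_Os01g66710 was at 6.27 and 4.34 FPKM in shaded and 3.11 and 2.29 FPKM in white light first leaves, against listed values of 0 in all 4 coleoptile libraries (limma adjusted p = 0.00150 in shade and 0.00496 in white light). LOC_Os06g28670 was at 3.41 and 2.26 FPKM in shaded and 3.50 and 2.03 FPKM in white light first leaves. In coleoptiles it was listed at 0 in 3 libraries and at 0.0530 FPKM in white light replicate 1 (adjusted p = 0.00769 in shade and 0.00819 in white light, limma). Both were low but separate from the coleoptile in every library. LOC_Os06g28670 lost its shade call without coleoptile shade replicates 1 or 2 or first leaf shade replicate 1 (adjusted p = 0.0573 to 0.0648) and its white light call without first leaf white light replicate 1 (adjusted p = 0.0663), in limma.

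Polygalacturonase LOC_Os03g03350 was above 0 in every library. It was at 19.2 and 18.3 FPKM in shaded first leaves, against 3.95 and 2.10 FPKM in shaded coleoptiles, a log2 change of 2.33 ± 0.25 (SE, limma adjusted p = 0.00211). In white light it was at 13.7 and 13.3 FPKM in first leaves, against 3.45 and 4.18 FPKM in coleoptiles, with a log2 change of 1.59 ± 0.25 (adjusted p = 0.00816). LOC_Os03g03350 lost its white light call without first leaf white light replicates 1 or 2 (adjusted p = 0.0601 to 0.0647), in limma. LOC_Os01g44970 was called in white light, at 21.8 ± 6.28 FPKM in first leaves and 9.95 ± 0.434 FPKM in coleoptiles (SD, n = 2 each; log2 change 1.03, adjusted p = 0.0338), and not in shade (0.64, adjusted p = 0.148). LOC_Os01g44970 lost its white light call without coleoptile shade replicates 1 or 2, first leaf shade replicates 1 or 2 or first leaf white light replicates 1 or 2 (adjusted p = 0.0502 to 0.205), in limma. The polygalacturonases with the highest means, LOC_Os01g43160, LOC_Os09g26800 and LOC_Os12g36810, had adjusted p of 0.0528, 0.847 and 0.838 in white light and were not called in shade either.

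Pectin acetylesterases that were called were all higher in the first leaf. LOC_Os01g66850 was at 23.0 and 27.3 FPKM in shaded first leaves, against 10.1 and 7.28 FPKM in shaded coleoptiles (log2 change 1.44 ± 0.19, SE, limma adjusted p = 0.00509). In white light it was at 31.7 and 33.8 FPKM in first leaves, against 9.27 and 9.77 FPKM in coleoptiles (1.68 ± 0.19, adjusted p = 0.00279). LOC_Os01g66850 lost its shade call without coleoptile shade replicate 2 or first leaf shade replicate 2 (adjusted p = 0.05003 to 0.0512), in limma. Its neighbour by identifier LOC_Os01g66830 was between 18.3 and 34.4 FPKM in all libraries and was not called (adjusted p = 0.267 in shade and 0.359 in white light). LOC_Os04g51340 was called in shade, at 21.7 ± 5.27 FPKM in first leaves and 6.38 ± 1.14 FPKM in coleoptiles (SD, n = 2 each; log2 change 1.61, adjusted p = 0.01004), and not in white light (0.65, adjusted p = 0.169). LOC_Os04g51340 lost its shade call without coleoptile shade replicates 1 or 2 or first leaf shade replicate 1 (adjusted p = 0.0516 to 0.0935), in limma.

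**Figure D2:**
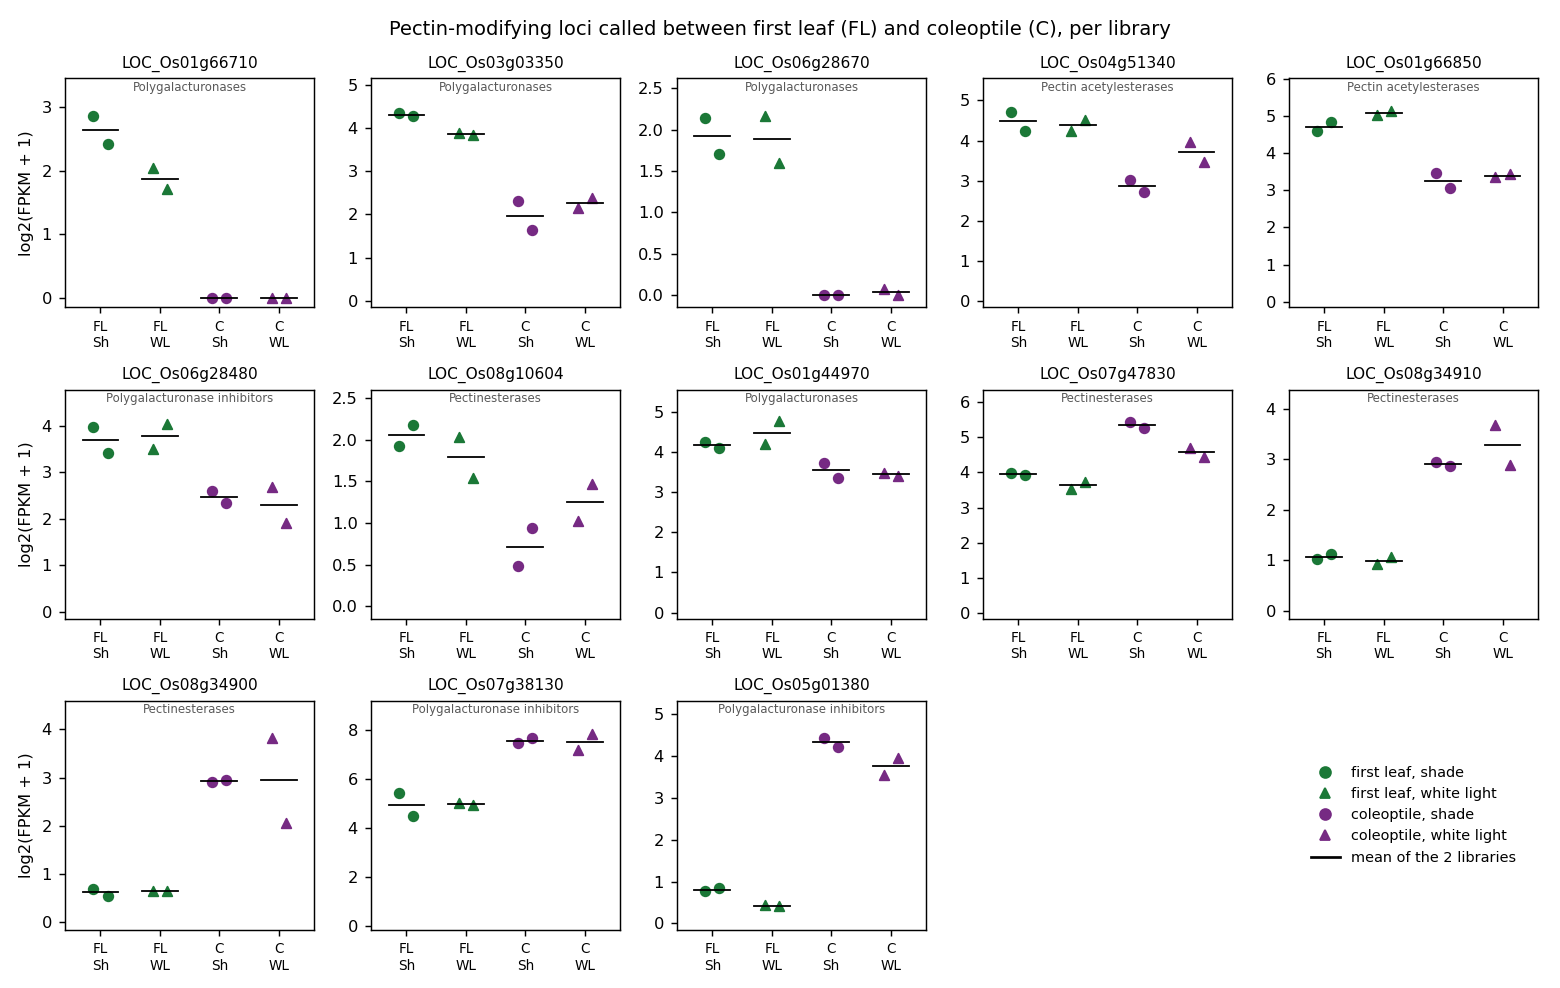
Level as log2(FPKM + 1) (y axes) in every library of the 13 members called between first leaf and coleoptile in either light, with first leaf shade (FL Sh), first leaf white light (FL WL), coleoptile shade (C Sh) and coleoptile white light (C WL) from left to right; black lines are means of 2 libraries. First leaf libraries lie above coleoptile libraries in the first 8 panels and below them in the last 5.

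The median log2 change of the 64 tested members between first leaf and coleoptile was 0.19 in shade and 0.02 in white light, beside 0.00 and 0.02 over all tested loci. By subfamily the medians in shade ran from -0.65 for polygalacturonase inhibitors to 0.36 for pectin acetylesterases. The counts of calls rest on which libraries enter, and the shares of all loci called move with them. In shade 12 members were called higher without either white light coleoptile library (beside 11.0% of all tested loci without replicate 1 and 10.9% without replicate 2). There 3 were called higher without coleoptile shade replicate 1 (beside 1.87%), 2 without replicate 2 (beside 1.08%) and 3 without first leaf shade replicate 1 (beside 2.25%). Those called lower in shade numbered 3 without coleoptile shade replicate 1 (beside 1.48%), 2 without replicate 2 (beside 1.50%) and 3 without either first leaf shade library (beside 1.69% and 1.71%). In white light 11 were called higher without coleoptile white light replicate 1 (beside 9.89%), 2 without first leaf white light replicate 1 (beside 1.68%) and 3 without replicate 2 (beside 1.98%). There 9 were called lower without coleoptile white light replicate 1 (beside 8.21%), 8 without replicate 2 (beside 10.7%), and 3 without either first leaf white light library (beside 1.85% and 1.80%).

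**Figure D3:**
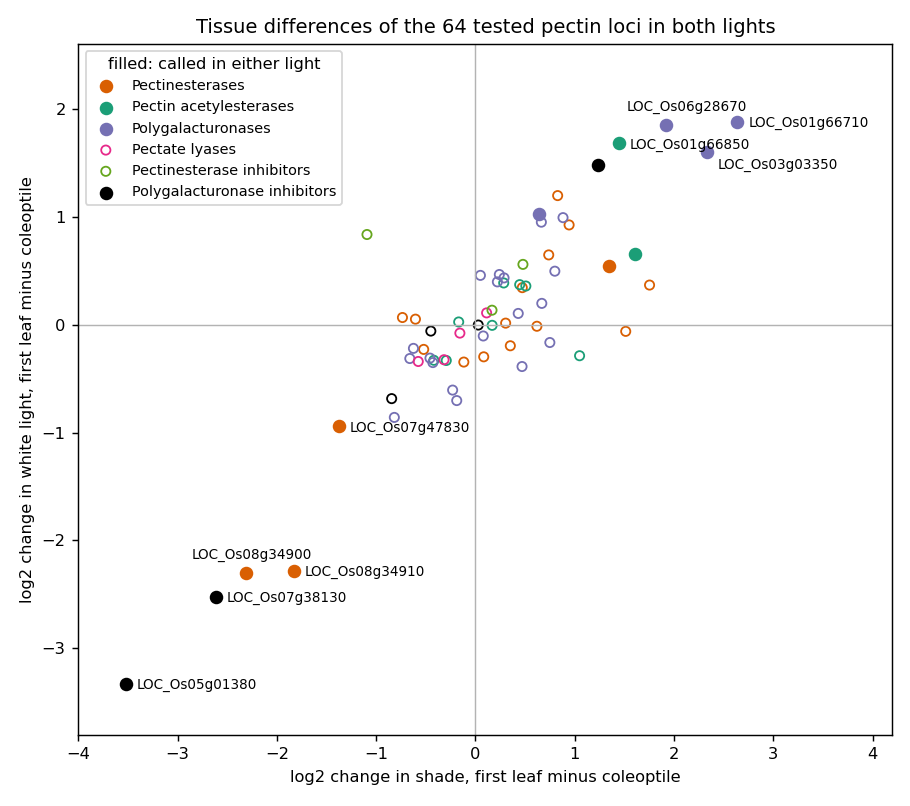
Log2 change between first leaf and coleoptile in shade (x axis) and in white light (y axis) for the 64 tested members, coloured by subfamily; filled points were called in at least 1 light. Points at lower left are lower in the first leaf in both lights, led by the polygalacturonase inhibitor LOC_Os05g01380 at -3.52 and -3.33.

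In the coleoptile, 1 h of shade left no pectin gene past the threshold. Limma called 0 of 64 members in either direction, where 0.0333% of all tested loci were called higher and 0.00952% lower. At an unadjusted p under 0.05 there were 5 members higher (7.81%, against 4.17% of all tested loci) and 4 lower (6.25%, against 5.74%). In 12 members (18.8%) both shaded libraries lay above both white light libraries, against 17.3% of all tested loci, and in 7 (10.9%) both lay below, against 15.3%. The median log2 change of the members was 0.05, beside 0.02 over all tested loci.

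The smallest p of any member belonged to the pectinesterase LOC_Os07g47830, which was at 41.9 and 37.0 FPKM in shaded and 25.0 and 20.6 FPKM in white light coleoptiles. The groups did not overlap, with a log2 change of 0.77 ± 0.17 (SE, limma adjusted p = 0.166). The other high changes were those of pectinesterases LOC_Os01g57854 (1.02) and LOC_Os01g13320 (0.88), polygalacturonase LOC_Os08g01600 (0.85) and the inhibitor domain protein LOC_Os02g33380 (0.93), with adjusted p from 0.255 to 0.617. LOC_Os08g01600 was at 7.22 and 7.29 FPKM in shaded and 3.35 and 3.85 FPKM in white light coleoptiles. LOC_Os01g13320 was at 3.24 and 2.15 FPKM in shaded and 0.914 and 1.06 FPKM in white light coleoptiles. In these 2 members, as in LOC_Os07g47830, the white light replicates lay close together. LOC_Os01g57854 was at 10.1 and 7.93 FPKM in shaded and 6.32 and 2.32 FPKM in white light coleoptiles, with its white light replicates far apart. LOC_Os02g33380 was at 2.97 and 2.43 FPKM in shaded and 2.32 and 0.123 FPKM in white light coleoptiles, so that white light replicate 2 alone was low. Its change was 0.15 without that library (adjusted p = 0.780).

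The lowest changes belonged to members that were high in a single white light library. Pectin acetylesterase LOC_Os01g66840 was at 0.416 and 1.04 FPKM in shaded and 7.96 and 0.806 FPKM in white light coleoptiles. Pectinesterase LOC_Os05g44600 was at 2.87 and 3.04 FPKM in shaded and 14.3 and 4.67 FPKM in white light coleoptiles, and pectinesterase LOC_Os01g53990 at 2.91 and 2.05 FPKM in shaded and 12.7 and 2.80 FPKM in white light coleoptiles. Polygalacturonase LOC_Os01g43490 was at 0.598 and 0.781 FPKM in shaded and 4.29 and 1.16 FPKM in white light coleoptiles. In these 4 the high library was white light replicate 1. In polygalacturonase LOC_Os05g50260, at 16.5 and 11.1 FPKM in shaded and 14.5 and 59.1 FPKM in white light coleoptiles, it was replicate 2. Their log2 changes ran from -1.24 to -1.00 and their limma adjusted p from 0.434 to 0.698.

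**Figure D4:**
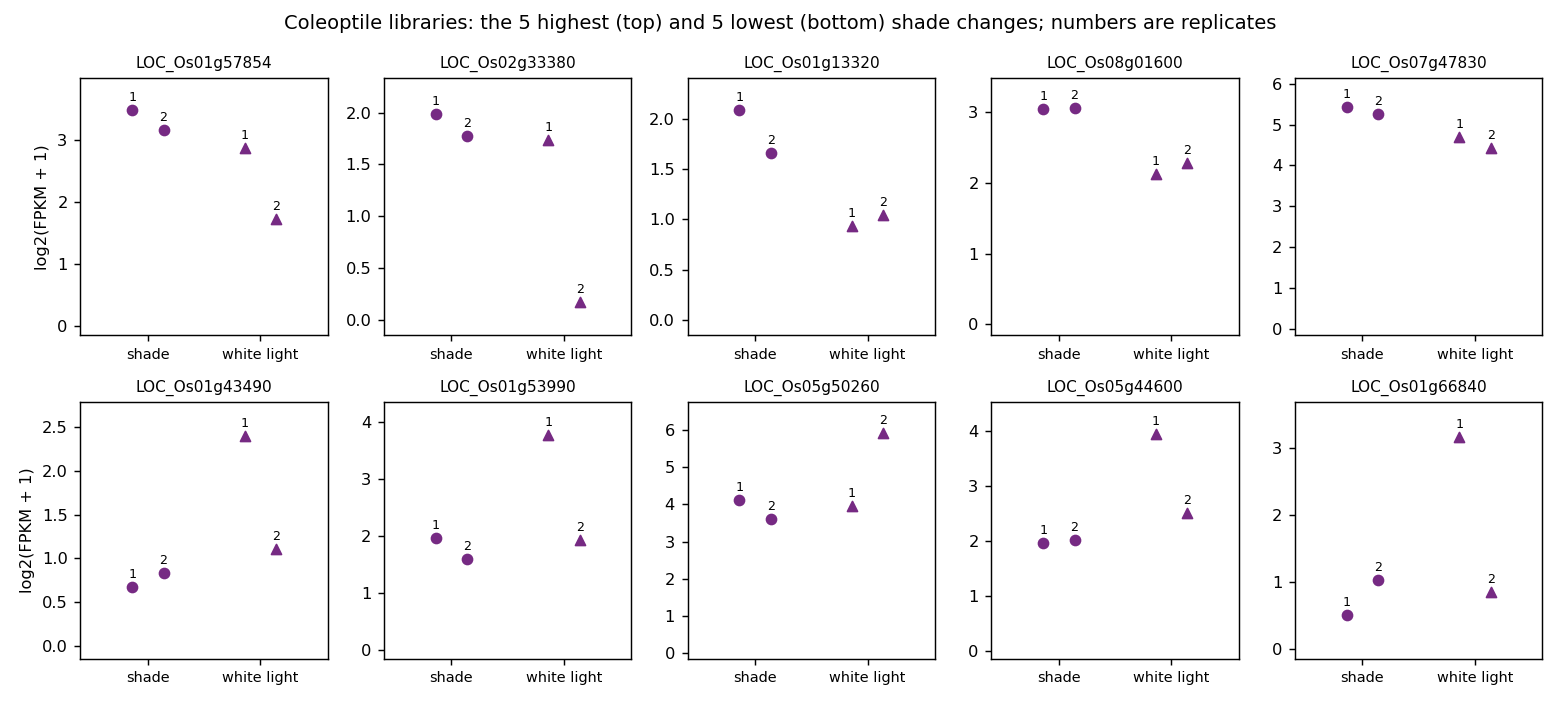
Level as log2(FPKM + 1) (y axes) in the 4 coleoptile libraries, shade left of white light, for the members with the 5 highest (upper row) and 5 lowest (lower row) shade changes; numbers beside the points are replicates. In the lower row a single white light library lies above the other 3, replicate 1 in 4 panels and replicate 2 in that of LOC_Os05g50260.

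White light coleoptile replicates differed over 2-fold in FPKM + 1 at 20 of the 64 tested members (31.3%), against 15.1% of all tested loci. Replicate 1 was the higher at 15 of the 20 (23.4% of 64, against 11.8%) and replicate 2 at 5 (7.81%, against 3.29%). In the shaded coleoptile 0 members were that far apart, against 1.42% of all tested loci, and in each first leaf group 1 was. Set against the 3 remaining coleoptile libraries together, replicate 1 was more than 2-fold higher at 6 tested members (9.38%, against 8.17% of all loci), and replicate 2 more than 2-fold lower at 9 (14.1%, against 6.34%). Of those 9, 5 were pectinesterases, among them LOC_Os01g65790, at 25.7 and 4.51 FPKM in replicates 1 and 2. Each mean includes the other white light library, and LOC_Os01g66840 and LOC_Os08g34900 are in both counts. Replicate 2 of LOC_Os01g66840, at 0.806 FPKM, lay within its shaded range of 0.416 to 1.04 FPKM. The summed WRKY and ZIM levels were highest in the same replicate 1, and loci annotated to the root cap summed to 14.6 to 15.7 FPKM in shaded and 5.21 to 5.83 FPKM in white light coleoptiles. Their part in these values was not tested.

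Without coleoptile white light replicate 1, which leaves a single white light coleoptile library that is assumed to vary like the other groups, 3 members were called. Pectinesterase LOC_Os01g65790 (log2 change 1.89, limma adjusted p = 0.0319) and LOC_Os02g33380 (1.72, adjusted p = 0.0475) were higher in shade and LOC_Os05g50260 (-2.05, adjusted p = 0.0437) was lower, at shares of 3.12% and 1.56% against 0.657% and 0.447% of all tested loci. Without replicate 2, 1 was higher (LOC_Os12g36810; 1.56%, against 1.94% of all tested loci) and 5 were lower (LOC_Os01g43490, LOC_Os01g53990, LOC_Os01g66840, LOC_Os05g44600 and LOC_Os10g26680; 7.81%, against 6.34%). The 2 sets share no member. Leaving out each of the 6 other libraries in turn, limma called 0 members. The median of the 18 pectinesterases was 0.01 with all libraries, 10 of them positive, and 0.64 without white light replicate 1. Without that library the median was 0.002 over all tested members and -0.01 over all tested loci. The 0.64 rests on white light replicate 2 alone, the library that was low at several pectinesterases, and the median without replicate 2 is not given here. All 6 tested polygalacturonase inhibitors had positive changes, with a median of 0.22, and none was called.

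In the first leaf, 1 h of shade also left no pectin gene past the threshold, while most members had a positive change. Limma called 0 of 64 in either direction, as it did 0 (0.00%) of all tested loci. At an unadjusted p under 0.05 there were 2 members higher (3.12%, against 3.01% of all tested loci) and 0 lower (against 2.47%). Without coleoptile white light replicate 1, from which the first leaf comparison takes only its estimate of the spread, limma again called 0 members in either direction, beside 0.0571% of all loci higher and 0.186% lower. Both shaded libraries lay above both white light libraries in 19 members (29.7%), against 21.3% of all tested loci, and below them in 5 (7.81%), against 18.3%. The log2 change was positive in 43 of 64 members (67.2%, against 51.0% of all tested loci), and its median was 0.11, beside 0.01 over all tested loci. Members share the same libraries, so their directions are not independent. Summed over all members, the groups overlapped, at 1285 and 1082 FPKM in shaded and 987 and 1233 FPKM in white light first leaves. Among 18 pectinesterases 15 were positive (median 0.30), as were 16 of 23 polygalacturonases (median 0.19) and 3 of 4 pectate lyases (median 0.35). Pectin acetylesterases, with 5 of 10 positive, had a median of 0.04.

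Polygalacturonases LOC_Os01g66710 and LOC_Os01g43160 were the 2 with an unadjusted p under 0.05. LOC_Os01g66710 was at 6.27 and 4.34 FPKM in shaded and 3.11 and 2.29 FPKM in white light first leaves (log2 change 0.76 ± 0.25, SE, limma adjusted p = 0.707). LOC_Os01g43160 was at 46.6 and 37.4 FPKM in shaded and 26.5 and 31.3 FPKM in white light first leaves (0.52 ± 0.18, adjusted p = 0.749). Groups of both did not overlap.

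The other high changes of the first leaf were in pectinesterases, with 1.00 as the adjusted p of each. LOC_Os01g65790 was at 43.3 and 33.6 FPKM in shaded and 19.2 and 25.2 FPKM in white light first leaves (log2 change 0.77). LOC_Os06g09340 was at 14.5 and 10.5 FPKM in shaded and 6.78 and 8.57 FPKM in white light first leaves (0.63). LOC_Os02g54190 (0.67) and LOC_Os05g29790 (0.65) were under 4 FPKM throughout. The lowest change was that of LOC_Os02g33380, at 0.619 and 0.850 FPKM in shaded and 2.00 and 2.95 FPKM in white light first leaves (-0.99, limma adjusted p = 0.977), followed by pectinesterases LOC_Os10g26680 (-0.42) and LOC_Os04g46740 (-0.37), pectin acetylesterase LOC_Os01g66850 (-0.37) and polygalacturonase LOC_Os01g44970 (-0.30). Without first leaf shade replicate 2 the change of LOC_Os04g46740 turned to 0.20.

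**Figure D5:**
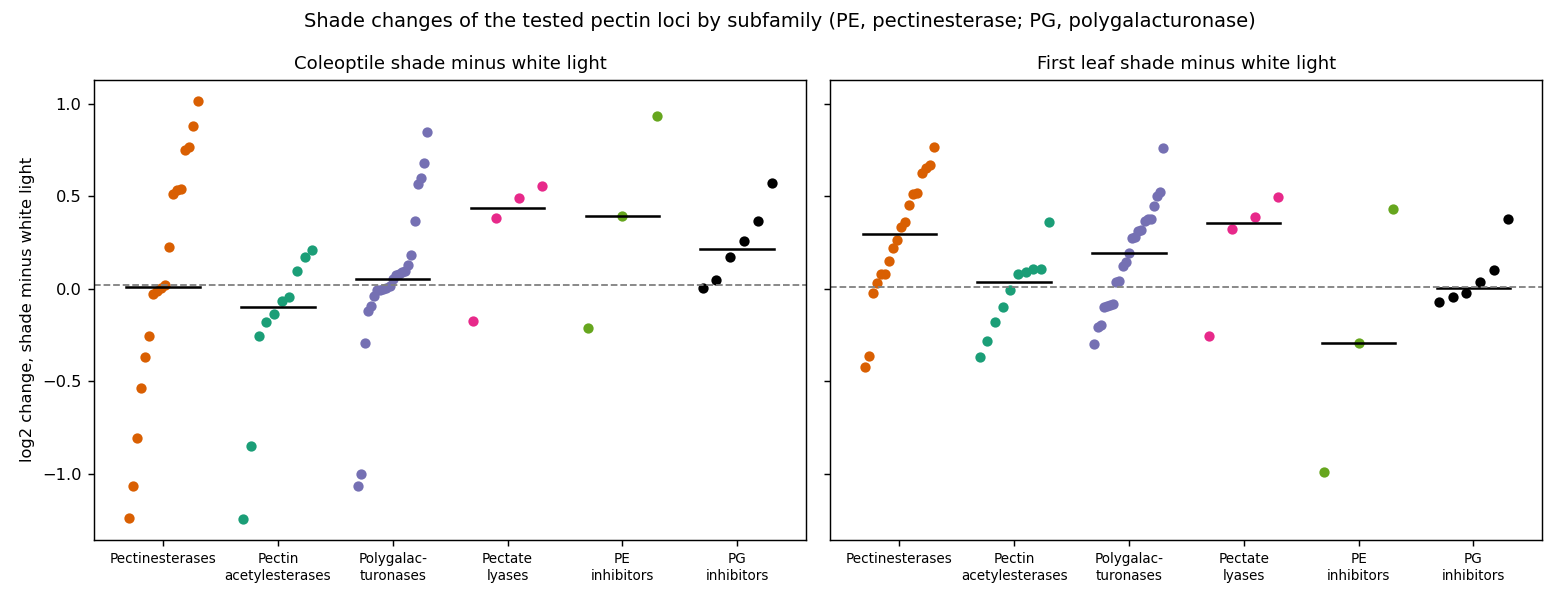
Log2 change between shade and white light (y axis) of each tested member, by subfamily, in the coleoptile (left) and the first leaf (right); black lines are subfamily medians and the dashed line is the median of all tested loci. No point passed the threshold, and in the first leaf 15 of 18 pectinesterases lie above 0.

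Whether the 2 tissues differed in their shade change was tested as the first leaf change minus the coleoptile change. Limma called 0 of 64 members, where 0.00476% of all tested loci had a positive difference called and 0.0143% a negative one. At an unadjusted p under 0.05 there was 1 positive member (1.56%, against 3.64%) and 1 negative (against 1.94%). These were the inhibitor domain protein LOC_Os02g33380, with a shade change of -0.99 in the first leaf and 0.93 in the coleoptile (difference -1.93 ± 0.67, SE, adjusted p = 0.773), and pectin acetylesterase LOC_Os04g51340, with 0.11 in the first leaf and -0.85 in the coleoptile (difference 0.96 ± 0.36, adjusted p = 0.801). The widest positive differences were those of LOC_Os01g53990 (1.58), LOC_Os05g44600 (1.39) and LOC_Os01g66840 (1.34), followed by LOC_Os04g51340 and LOC_Os01g43490 (0.91). All of these but LOC_Os04g51340 were over 2-fold higher in coleoptile white light replicate 1 than in the 3 other coleoptile libraries together. The next widest negative differences were those of LOC_Os01g13320 (-0.80), LOC_Os01g57854 (-0.66), LOC_Os07g47830 (-0.44) and LOC_Os01g19170 (-0.41), which turned to 0.12 without coleoptile white light replicate 2. Without coleoptile white light replicate 1 the difference of LOC_Os02g33380 was the only one called (-2.71, adjusted p = 0.0498), which rests on the low white light replicate 2, beside 0.152% of all loci positive and 0.0952% negative. Without replicate 2 the difference of LOC_Os02g33380 was -1.15 (adjusted p = 0.145), and that of LOC_Os01g53990 was called (2.50, adjusted p = 0.0358), beside 3.61% of all loci positive.

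Other loci of families tied to pectin synthesis, breakdown and sensing were taken by annotation text alone, so some of them may not act on pectin. Limma called 0 of them for shade in either tissue or for the difference of responses, and at an unadjusted p under 0.05 the 8 lists together held 14 of 108 loci for the coleoptile (13.0%, against 9.91% of all tested loci), 3 for the first leaf (2.78%, against 5.48%) and 15 for the difference (13.9%, against 5.58%). The coleoptile and difference counts use the white light coleoptile libraries, whose replicates correlated least. Counts without either of these libraries are not given here. Between first leaf and coleoptile, 10 of the 108 were higher (9.26%) and 11 lower (10.2%) in shade, against 5.67% and 4.63% of all tested loci, and 8 were higher (7.41%) and 14 lower (13.0%) in white light, against 5.92% and 5.03%. By list, 25 tested glycosyltransferases of family 8, which holds the galacturonosyltransferases that build pectin, had 1 locus lower in the first leaf in shade and 1 in white light (medians -0.03 in shade and -0.23 in white light). Among 4 UDP-glucuronate epimerases, which supply the galacturonic acid, 1 was lower in shade, and in white light limma called 0 and 0 had an unadjusted p under 0.05 (medians 0.07 and -0.45). Of 8 invertase or pectin methylesterase inhibitors outside the 132, 1 was higher and 1 lower in the first leaf in shade, and 1 was lower in white light (medians -0.13 and 0.28). Of 12 beta-galactosidases, some of which trim pectin side chains, 1 was higher and 1 lower in shade, and 1 was higher and 2 were lower in white light (medians -0.21 and -0.02). Limma called 0 of 8 arabinofuranosidases in either light, with an unadjusted p under 0.05 at 1 in shade and 4 in white light (medians -0.21 and -0.53).

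Wall-associated kinases are receptor-like kinases of a family whose members in Arabidopsis bind pectin. Of 42 tested, 7 were higher and 4 lower in the first leaf in shade, and 5 were higher and 7 lower in white light (medians -0.08 and 0.16). BURP domain proteins include the non-catalytic subunit of a tomato polygalacturonase. Of 8 tested, 1 was higher and 3 were lower in shade, and 2 were higher and 3 lower in white light (medians -0.03 and -0.06). All 16 BURP loci summed to 638 to 864 FPKM in first leaf libraries, against 6198 to 10122 FPKM in coleoptile libraries. LOC_Os05g12640 was at 309 to 501 FPKM in first leaves and 5793 to 9719 FPKM in coleoptiles. Its log2 change was -4.32 in shade (limma adjusted p = 0.000644) and -4.09 in white light (adjusted p = 0.000847). The median over all tested loci was 0.00 in shade and 0.02 in white light. The single tested rhamnogalacturonan lyase was not called.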

How the data were processed

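RNA was sequenced from 8 libraries. Per the submitters' processing notes, TopHat2 2.0.14, Bowtie2 2.2.3, Cufflinks 2.2.1 and Cuffnorm 2.2.1 were among the tools used. Values are the authors' deposited FPKM per locus and library. Counts were not used here, so counting error is unknown. From low-value steps, relative depth ran from 0.827 to 1.37 times that of coleoptile shade replicate 1, but only 24.8% to 30.0% of low loci showed such steps, and no counts were recovered. FPKM totals ran from 696059 to 808054 per library.

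Members were loci whose annotation matched the 4 enzyme names. Members and lists were chosen with earlier results of these data known. For 21014 loci whose mean reached 1 FPKM, log2(FPKM + 1) was fitted in limma 3.58.1 (R 4.3.3, trended variance, 4 group means, 4 residual and 3.26 prior degrees of freedom), with Benjamini-Hochberg adjustment per comparison over all loci. The first leaf and coleoptile shade comparisons each share their libraries with the tissue comparisons. The text names up to 6 members called per direction with the widest changes, the 5 widest per direction where fewer than 5 were called in all, the 3 highest loci of each subfamily, loci listed at 0 in a group and at 1 FPKM or more in the group it is compared with, and others chosen after their values were seen. The fit was tested on simulated data. Alternatives were a pseudocount of 0.1, other filters and scalings, a replicate block and leaving out each library. No sequence was matched to these loci, and none is printed.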

Additional observations from a re-analysis of the deposited data

How the results depend on the processing

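Each group had 2 libraries, and the values are FPKM without counts, so counting error could not be set beside the spread. Over the comparisons the median log2 change of all loci ran from -0.027 to 0.021 in the main fit. With scaling by the median or by quantiles it ran from -0.071 to 0.060. For the tissue comparison in white light, 7 members were called at a filter of 5 FPKM, of which 3 were lower and the others higher. There 41 members were tested, and 5.91% of all loci were called higher and 5.41% lower. In white light, fitting the libraries of the comparison alone gave 3 higher and 2 lower (beside 1.38% and 1.13%). In shade the filter of 5 FPKM gave 3 higher and 3 lower (beside 5.75% and 4.61%), and the libraries of the comparison alone gave 14 higher and 8 lower (beside 10.5% and 8.57%). The stricter filter removes loci from the test; otherwise the cause was not tested. Leaving out 1 library gave 2 to 11 higher and 3 to 9 lower in white light and 2 to 12 higher and 2 to 7 lower in shade. For shade against white light it gave 0 to 2 higher and 0 to 5 lower in the coleoptile, 0 in either direction in the first leaf, and 0 to 1 in either direction for the difference of responses. Over the libraries left out, 2 log2 changes turned round: that of LOC_Os04g46740 in the first leaf ran from -0.93 to 0.20, and the difference of responses of LOC_Os01g19170 from -0.94 to 0.12. No filter kept 8 of the 11 white light calls among 12 and 9 of the 11 shade calls among 14. Of all loci it called 3.25% higher and 2.61% lower in white light, and 3.14% higher and 2.86% lower in shade. Deviations of same-numbered libraries correlated at -0.15 to 0.09, so the numbers were not taken as pairs. A replicate block gave 5 higher and 5 lower in white light, beside 5.06% and 4.46% of all loci. In shade it gave 7 higher and 5 lower, beside 4.80% and 3.96%. It gave 0 members for the coleoptile, the first leaf and the difference of responses, where at most 0.0190% of all loci were called in a direction.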

Other observations

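Members outside the named loci were also high in 1 white light coleoptile library. Pectinesterase LOC_Os01g20980, under the filter, was at 0.382 and 0.240 FPKM in shaded and 3.85 and 0.485 FPKM in white light coleoptiles, and LOC_Os02g18650 at 0 and 0 FPKM in shaded and 1.79 and 0.133 FPKM in white light coleoptiles. Both were highest in replicate 1.

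Pectin acetylesterases LOC_Os01g66830, LOC_Os01g66840 and LOC_Os01g66850 have adjacent identifiers and differed in level. LOC_Os01g66840 was at 2.38 and 2.65 FPKM in shaded and 1.16 and 4.02 FPKM in white light first leaves, under LOC_Os01g66830, at 26.8 and 24.6 FPKM in shaded and 24.9 and 34.4 FPKM in white light first leaves.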
